A study of Gallus gallus with 6 samples.

Results

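The regions described here are the differentially methylated regions (DMRs) at gene 3' ends of the chick lens. A DMR is a run of adjacent CG sites whose methylation differed between lens epithelial and lens fiber cells in the authors' model. A DMR was taken as a member when its annotation included a 3' untranslated region (3' UTR) or a transcription end site (TES) of any gene and no promoter. This rule, which uses no methylation value, kept 266 of 7621 DMRs, and they are called 3' end DMRs below. Another 73 DMRs overlapped a 3' end and also a promoter and were left out by the rule. In 64 of these 73 the promoter belonged to another gene than the 3' end, and in 9 to the same gene.

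The study sequenced bisulfite-treated genomic DNA from White Leghorn chick lenses. The embryos were at embryonic day 13, and neither group carried a treatment or genetic change by its labels. Lenses were dissected into lens epithelial cells and lens fiber cells, and 25 lenses were pooled for each of the 3 replicates per cell type, 6 samples in all. The mCG level is the share of DNA copies in which the cytosine of a CG is methylated, and levels were deposited per DMR and cell type, pooled over replicates. Replicate levels and read depth were not analysed here, so no spread between replicates stands beside a level and no test was made. These DNA data hold no expression marker against which the labelled cell types could be checked.

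The 3' UTR is the stretch of a messenger RNA behind the stop codon. It carries sites for RNA-binding proteins and microRNAs and the signal at which the transcript is cut and given its poly(A) tail, and the TES is where the annotated transcript stops. Methylation of promoters is best known for accompanying silent genes, whereas bodies of active vertebrate genes, 3' ends included, are commonly methylated. In the lens, epithelial cells at the equator stop dividing and elongate into fiber cells, which fill with crystallins and lose their organelles.

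Short stretches of some 3' end DMRs can be printed because the study listed matches to transcription factor motifs within certain DMRs, namely losses in genes it classed as fiber-preferred and gains in genes it classed as epithelial-preferred. A DMR without a listed match may not have been scanned, and a match is a description of letters and not a shown binding site. The study listed only motifs that it had found enriched in such DMRs, for factors expressed in the lens. Which factors could appear here was thus set by that choice. The listing for gains was held only in part. Among 3' end DMRs with a lower mCG level in fiber cells, 17 listed matches lay in 4 DMRs. After merging matches with the same start and end they lay in 9 places, several of which overlap. They were matches to the Maf family, to BACH2, which binds related sequences, and to Sox2. Sox2 and several Maf factors are regulators of lens development, whereas for MAFF the paper knows of no lens function. None of the 9 places held a CG, so the methylated cytosines of these DMRs lay outside the matched letters. The following 5 are shown because they cover 3 of these DMRs. Capitals mark the letters GCTGA or, on the other strand, TCAGC, a core of Maf and BACH2 sites, and CTTTGT, the core of Sox sites. All are given 5' to 3' on the stated strand of galGal6. How often other regions hold these letters was not analysed here.
FAM109A, Sox2 match, chr15:6394986-6394993, plus strand: cCTTTGTg
ITPK1, MAFG match, chr5:45102231-45102251, plus strand: ggtctgcTCAGCcagcagctt
ITPK1, BACH2 match, chr5:45102260-45102273, minus strand: ggtgacccagctaa
ENSGALG00000054048, Sox2 match, chr19:6867384-6867391, minus strand: cCTTTGTt
ENSGALG00000054048, MAFG match, chr19:6867389-6867409, plus strand: aggctGCTGAttcatcttagt

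The DMR of ENSGALG00000054048 went from 46.0% in epithelial cells to 19.2% in fiber cells. That of ITPK1, an inositol phosphate kinase, went from 38.9% to 13.6%, and that of FAM109A, an adaptor of endosomes, from 57.5% to 17.2%. The BACH2 match at ITPK1 held neither marked core.

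Among 3' end DMRs with a higher mCG level in fiber cells, 77 matches in the held part of the listing lay in 21 DMRs and at 76 places, of which 14 held a CG. ZNF384, whose motif is rich in A, accounted for 49 of the 77 matches, in 6 DMRs that include those of PAX6, PMEPA1, hairy1 and CD81. Many of these overlap, and none held a CG, so every match with a CG is among the other 28. The places with a CG included the letters CACGT or ACGTG, parts of the E-box CACGTG, at 7 places in 5 DMRs. Some of these places overlap at FGFR3. Not all hold the full E-box, as at the CREB3L1 match of HDAC7. The 6 shown next are matches in which the methylated dinucleotide lies inside the matched letters, and capitals mark each CG.
FGFR3, Arntl match, chr4:83411589-83411598, plus strand: CGtcaCGtgc
FGFR3, HIF1A match, chr4:83411615-83411624, minus strand: gcaCGtgccc
MSX1, MYC match, chr4:78807722-78807733, minus strand: tcccaCGtgCGc
HDAC7, CREB3L1 match, chr33:5909001-5909014, plus strand: ctgccaCGtatcca
WNT2B, RBPJ match, chr26:3506014-3506023, minus strand: cctgggaaCG
CD81, FOXK1 match, chr5:13821313-13821326, plus strand: aatgtaaacaCGca

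The levels around these matches are means over whole DMRs. At FGFR3, a fibroblast growth factor receptor, the 3' end DMR of 508 bp went from 22.9% to 46.4%. At MSX1, a homeobox factor, it went from 23.6% to 39.1%, at HDAC7, a histone deacetylase, from 46.4% to 74.8%, and at WNT2B, a Wnt ligand, from 27.0% to 51.0%. MSX1 and the matches printed in both sets were chosen after their values were seen.

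The 266 regions were mostly gains, that is, more methylated in fiber cells. There were 236 gains and 30 losses, so 88.7% were gains (95% Wilson interval 84.4% to 92.0%, which covers the counting of DMRs only), beside 86.6% of all DMRs. The share at 3' ends is near this background. Exon DMRs with neither a promoter nor a 3' end, the class most alike since every 3' end DMR also overlapped an exon, had 90.7% gains among 1350. The median change, fiber minus epithelial level, was 18.7 percentage points, beside 19.9 over all DMRs and 17.9 in the other exon DMRs. It ranged from -51.7 to 48.9 points. A change of at least 20 points in either direction was seen in 138 regions, or 51.9%, beside 59.5% of all DMRs.

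As medians, levels at 3' ends lay between those of all DMRs and those of other exons. The median epithelial level was 35.5% at 3' ends, 30.5% over all DMRs and 41.2% in the other exon DMRs. The median fiber level was 55.0%, beside 49.6% and 59.6%. The mean of both cell types, which does not depend on direction, had a median of 44.4% at 3' ends, beside 40.2% and 49.5%. Regions nearly free of methylation in epithelial cells, under 10%, numbered 21, or 7.89%, beside 11.6% of all DMRs. All 21 were gains, as were 884 of the 886 such DMRs in the table. A region that starts under 10% has little room for a loss, so this direction is largely set by the starting level. Another 47 regions, 17.7%, started above 60%, beside 14.9% of all DMRs. In the scatter of levels, gains spread over most of the range. Losses had epithelial levels from 12.3% to 82.1% and fiber levels of at most 50.3%.

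**Figure D1:**
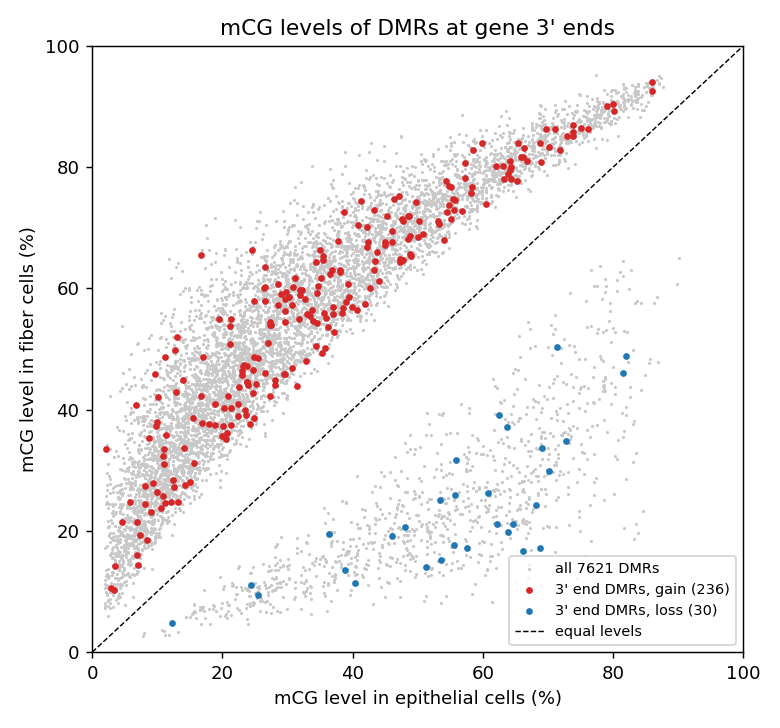
Each point is a DMR, with its mCG level in epithelial cells on the x axis and in fiber cells on the y axis, both in percent and pooled over 3 replicates. The 236 gains lie above the line of equal levels and the 30 losses below it, and they sit within the cloud of all 7621 DMRs drawn in gray.

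As to error, a rough standard error for the change at any single CG site was obtained by dividing the change of a DMR by its average test statistic per site. It had a median of 3.48 points over the 266 regions and ranged from 1.26 to 5.32. It is not the error of a DMR mean and comes from sites selected for large statistics.

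In size the medians were close to those of all DMRs. Their median length was 241 bp, beside 236 bp, with a range from 60 bp at PCBP2 to 3612 bp at FAM110C. They listed 26 CG sites as a median, beside 23, and the density was 11.6 listed sites per 100 bp, beside 10.3. Over all DMRs the highest density was 50.9 per 100 bp, so listed sites may count the cytosines of both strands. This was not tested, and the number of CG dinucleotides may be lower than the counts given here. Among regions with a change of at least 20 points the density was 7.66, beside 7.94 over all DMRs with such a change. Altogether they covered 86.2 kb on 33 of the 34 chromosomes in the table. Chromosome 1 held 30 of them and chromosome 33 held 13. On chromosome 33 they made up 10.2% of its 128 DMRs, against 9.09% on chromosome 25, 4.17% of the 719 DMRs of chromosome 1 and 3.49% over the whole table. Chromosomes Z and W together had 3.

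The annotation separated 3 kinds of 3' end. The most frequent, 188 regions, overlapped a 3' UTR without reaching the TES, and 87.2% of these were gains with a median change of 18.9 points. In 29 regions the DMR held both 3' UTR and TES, and 28 of them were gains, with a median epithelial level of 24.7%. The other 49 touched a TES with no 3' UTR annotated, with 44 gains and a median epithelial level of 36.2%. Intron was annotated in 96 of the 266 regions, or 36.1%, beside 75.2% of all DMRs and 70.2% of the other exon DMRs. In 77 of the 96 the intron was of the same gene, in 14 of another gene and in 5 of both. OMG, a myelin glycoprotein gene nested in an intron of NF1, is such a case. Its 3' end DMR had the lowest epithelial level of all 266, 2.20%, and 33.4% in fiber cells (OMG was chosen after its values were seen).

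CpG islands are CG-rich stretches, and shores flank them. An island was overlapped by 42 regions, or 15.8%, beside 12.7% of all DMRs, and an island or shore by 73, or 27.4%, beside 24.9%. The median change of the 42 island regions was 15.4 points, 5 of them (11.9%) reached 20 points, and 40 (95.2%) were gains. Over all 970 DMRs with an island the median was 15.5 points, 21.9% reached 20 points and 89.0% were gains. Where neither island nor shore was annotated, the 193 regions had a median change of 19.6 points, beside 21.1 in all such DMRs. Repeats were annotated in 5 regions, 1.88%, beside 6.76% of all DMRs and 1.93% of the other exon DMRs. Nearly all regions, 252, were at protein-coding genes only. The 7 at long non-coding RNAs, the 4 at pseudogenes and the 3 at microRNA genes were all gains, beside 86.6% gains over all DMRs. With so few regions, nothing particular to these gene types is read from this.

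The 10 largest gains were led by EFNA5, which encodes ephrin-A5, a membrane-bound ligand of Eph receptors. Its 3' end DMR (chrZ:48334624-48335000) went from 16.7% to 65.5%. RDH10, which oxidizes retinol on the way to retinoic acid, followed with 24.6% and 66.4%. CHRDL1, an antagonist of bone morphogenetic proteins, went from 13.0% to 52.1%. PMEPA1, a feedback inhibitor of TGF-beta signalling, went from 11.2% to 48.7%. The 4 regions thus started low and ended near or above 50%.

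CYR61, a matricellular protein, had a long gain of 1263 bp with 70 listed CG sites, from 12.7% to 49.9%. The others of the 10 were STAM2, an endosomal sorting adaptor, with 9.66% and 45.9%, MLNR, the motilin receptor, with 19.4% and 54.9%, PPM1K, a mitochondrial phosphatase, with 6.69% and 40.7%, NOD1, an intracellular sensor of bacterial cell wall, with 21.3% and 55.0%, and PWP1, a WD-repeat protein, with 26.4% and 60.04%. No gain among the 10 started above 26.4%. By summed evidence, the area statistic of the authors, BTBD6 came first with 176 listed sites and a change of 27.5 points, then FAM110C with 157 sites and 29.5 points, then TUBB, a beta-tubulin, with 204 sites and 11.3 points. The TUBB region was methylated in both cell types, at 73.9% and 85.1%, and lay in an island.

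The 30 losses started high. Their median epithelial level was 59.1% and their median fiber level 20.9%, beside 54.3% and 21.8% over all 1019 losses, which made up 13.4% of DMRs. A loss starts above its fiber level by definition. Their median change was -33.8 points, beside -27.9 over all losses, and 26 of the 30, or 86.7%, lost at least 20 points, beside 75.1% of all losses. As a share of all 3' end DMRs, these 26 were 9.77%, and losses of that size made up 10.0% of all DMRs. The 30 losses held 7.88 listed sites per 100 bp as a median, against 12.1 in the 236 gains. Over all DMRs the same medians were 9.58 and 10.4.

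GPR160, an orphan G protein-coupled receptor, had the largest loss (chr9:20022772-20022966), from 68.8% to 17.1%, and with 10 listed sites it was also the region with the fewest sites. WBP4, a splicing factor, went from 66.1% to 16.7% over 20 sites. SLC35B3, which carries the sulfate donor PAPS into the Golgi, went from 63.9% to 19.8%. These 3 regions lost most of their methylation.

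Further among the 10 largest were ZC4H2, a zinc finger protein, with 68.2% and 24.3%, ZNF767 with 64.7% and 21.2%, RCAN1, an inhibitor of the phosphatase calcineurin, with 62.2% and 21.2%, and PTPRO, a receptor tyrosine phosphatase, with 72.8% and 34.9%. FAM109A, DYNLRB2 and CAMSAP2 complete them. ZNF767 and ITPK1 also had the largest summed statistics among losses, followed by EXOC6, an exocyst subunit, whose 47 listed sites went from 36.4% to 19.5%. The smallest loss was at CDKN2C, an inhibitor of cyclin-dependent kinases named here after its value was seen. It lay in an island and went from 12.3% to 4.83%.

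Further losses, named here after their values were seen, were SPTSSA, a subunit of serine palmitoyltransferase, with 82.1% and 48.9%, and SDK1, a cell adhesion molecule, with 55.5% and 17.6%. They also included LRRC59, an endoplasmic reticulum protein, with 51.2% and 14.1%, YWHAG, a 14-3-3 protein, with 55.7% and 25.9%, and NPAS2, a circadian transcription factor, with 40.3% and 11.5%. SPTSSA alone of these 5 ended above 30%. TYW3, a transfer RNA modifying enzyme, had 60.7% and 26.3%, RNFT2 63.7% and 37.2%, and ANKRD40 55.9% and 31.6%. DHX36, a helicase that unwinds G-quadruplexes, had 25.5% and 9.51% in an island, and JUP, the junction protein plakoglobin, 24.4% and 11.1%. CDKN2C, JUP and DHX36 were thus the only losses that started under 30%.

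**Figure D2:**
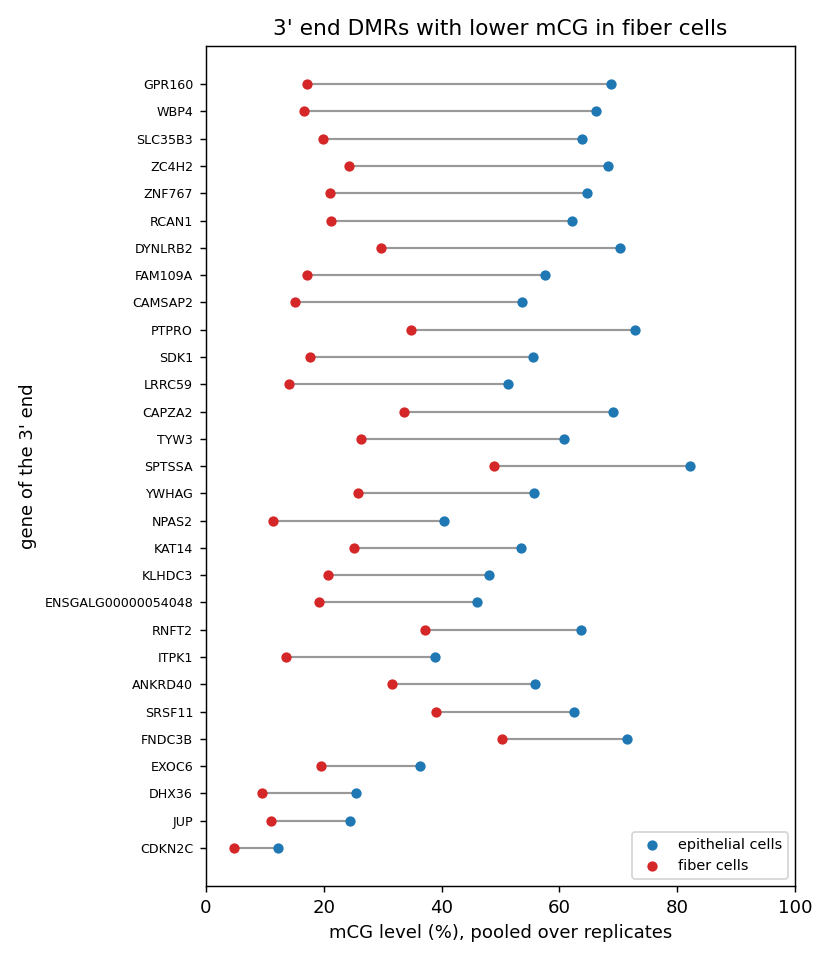
Of the 30 losses at 3' ends, 29 are drawn, 1 per line and ordered by size, with the mCG level in percent in epithelial cells (blue) and in fiber cells (red), pooled over 3 replicates. GPR160 at the top drops from 68.8% to 17.1% and CDKN2C at the bottom from 12.3% to 4.83%, and SPTSSA starts highest, at 82.1%.

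The genes were then read by function, over 12 lists of gene symbols that hold 71 of the 266 regions. The lists are symbol patterns that leave out some genes of each class and can take in genes outside it. Their counts are thus of listed genes and not of the class. Genes described here but on no fitting list include WBP4, PCBP2, SARNP, PPM1K, SSH2, MTA1, KLHDC3, CYR61, SDK1, PMEPA1, SHISA2 and JUP. Of the crystallins and lens structural genes, 3 had a 3' end DMR and all were gains. CRYAA, the alpha-A crystallin, a chaperone of the lens, had a DMR of 1042 bp over its 3' UTR and TES (chr1:111077587-111078628), at 11.3% and 35.9%. CRYAB, the alpha-B crystallin, had one at 11.02% and 33.6% (chr24:6245396-6245809), which also lies in an annotated intron of HSPB2. CRYBA1, a beta crystallin, had 34.7% and 60.4% (chr19:6113072-6113328). The 3 changes, 24.6, 22.6 and 25.7 points, were of similar size. Over all 32 DMRs of genes on this list, 53.1% were gains.

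At developmental transcription factors, 8 of 8 listed regions were gains, with a median change of 16.1 points, beside 85.8% gains and a median of 19.7 points over all 372 DMRs of the listed genes. PAX6, the homeobox factor needed for eye formation, had 27.3% and 53.9% (chr5:5444092-5444773). This region covers the PAX6 TES and lies in an intron of the neighbouring ELP4. POU2F3 had 47.3% and 64.9%, RUNX3 39.9% and 56.9%, and MEIS1 9.98% and 26.4%. MAF, the lens fiber regulator, was named after its value was seen and had the lowest fiber level of the 236 gains, 3.30% in epithelial and 10.2% in fiber cells.

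Signalling genes of the Notch, Wnt, FGF, BMP, TGF-beta and hedgehog pathways had 8 regions, all of them gains, with a median of 19.7 points. CHRDL1, WNT2B and FGFR3 are given above, and TGFB2, a TGF-beta ligand, had 45.0% and 67.7%. Over the 230 DMRs of genes on this list 87.0% were gains. The matrix and adhesion list had no 3' end DMR, and its genes held 162 of the 7621 DMRs.

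Cytoskeleton and motor genes had 4 gains and 4 losses among 8 regions, and their median change was -12.1 points. All 4 losses were over 35 points. They included DYNLRB2, a dynein light chain (70.2% and 29.8%), CAMSAP2, which binds microtubule minus ends (53.7% and 15.2%), and CAPZA2, which caps actin filaments (69.0% and 33.6%). Gains made up 85.1% of the 215 DMRs of this list's genes. With 8 regions, nothing particular to the list is read from this.

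The list of protein kinases and phosphatases had 12 regions, with 10 gains and 2 losses, beside 86.8% gains over all 266 DMRs of its genes. The losses were PTPRO and CDKN2C, both given above, and CDKN2C is on the list by its symbol although it inhibits kinases. SIK1, a salt-inducible kinase, gained 26.6 points in the larger of its regions, CAMK1D 25.9 points and STK40 25.4 points. The list of RNA-binding and RNA-processing genes had 7 gains and 2 losses, beside 80.5% gains over all 123 DMRs of its genes. RBM10, a splicing regulator, had 28.5% and 60.7%, the splicing factor SRSF5 57.2% and 78.3%, and EIF3A, a translation initiation subunit, 23.7% and 44.5%. SRSF11, also a splicing factor, was lower in fiber cells, at 62.5% and 39.1%.

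Solute carriers had 7 gains and 1 loss, that of SLC35B3, beside 92.1% gains over all 139 DMRs of listed genes. SLC25A26, the mitochondrial carrier of S-adenosylmethionine, had 24.8% and 58.0%, SLC7A5, an amino acid transporter, 42.3% and 70.2%, and SLC37A3 23.1% and 47.2%. The list of chromatin regulators had 6 gains and 1 loss, beside 81.6% gains over all 179 DMRs of its genes. The largest changes in either direction were at HDAC7, given above, and KAT14, a histone acetyltransferase, with 53.4% and 25.1%. NSD1, a histone methyltransferase whose identifier is typed as a pseudogene in the table, followed with 32.9% and 55.8%. PCGF1, a Polycomb subunit, came next with 33.9% and 54.6%.

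The remaining lists were small. Ion channels had 3 gains, among them the potassium channel genes KCNC4 and KCNAB2, by 29.9 and 15.4 points, beside 85.9% gains over all 128 DMRs of listed genes. The ubiquitin and autophagy list had 3 gains, at USP37, KLHL10 and RNF44, by 17.4, 14.9 and 13.3 points, beside 88.0% gains of 117. The zinc finger list held ZNF469, a gain of 25.2 points, and the loss of ZNF767, and not ZC4H2, and 84.3% of the 140 DMRs of its genes were gains.

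**Figure D3:**
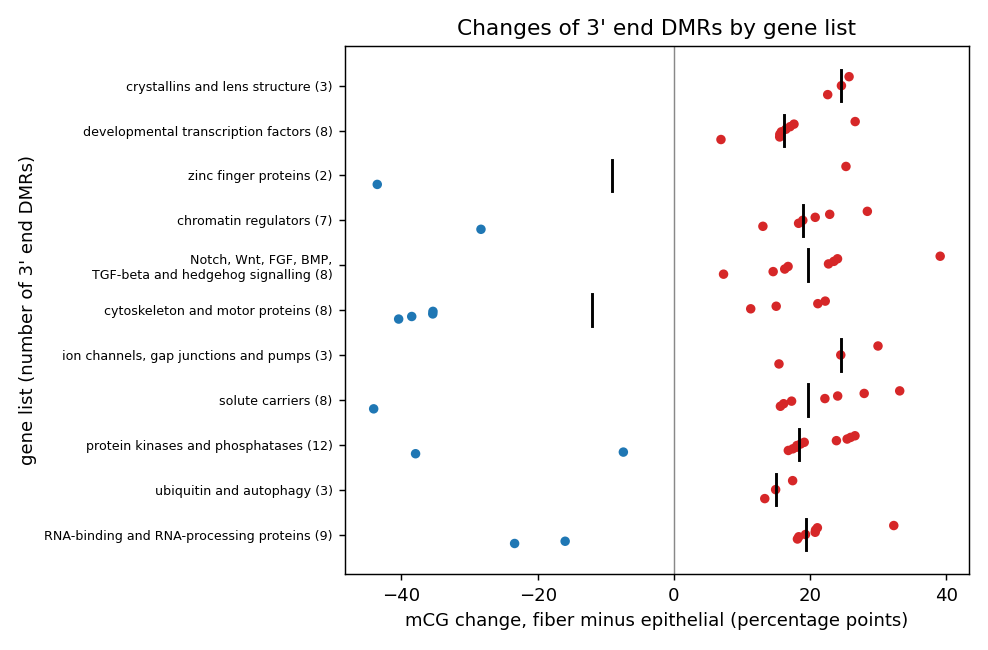
Each point is a 3' end DMR of a gene on the list named at the left, with the number of regions in brackets, and the x axis gives the change in percentage points, fiber minus epithelial level. Black bars are medians, red points are gains and blue points losses. The 4 losses of the cytoskeleton list lie at the left of its line, beside 4 gains, and the losses of SLC35B3 and ZNF767 on other lists lie further left.

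A 3' end DMR was often not the only DMR of its gene. The 266 regions belonged to 254 genes, 215 of them with a symbol. For 124 genes the 3' end DMR was the only one, and 128 genes had a further DMR outside the 3' end set. Among 445 pairs of a 3' end DMR with such a DMR of the same gene, 401 or 90.1% had the same direction (Wilson interval 87.0% to 92.6%, with pairs that share genes). Over all pairs of DMRs of 1 gene in the table this was 89.7%. Where the gene had a promoter DMR as well, in 34 genes and 48 pairs, 44 pairs had the same direction. In these 34 genes the median level of the 3' end was 37.9% in epithelial and 57.4% in fiber cells, and that of the promoter DMRs 31.7% and 53.1%. The epithelial level was higher at the 3' end in 23 of these 34, and in 64 of the 116 genes that had a further DMR in the gene body. In those 116 the medians were 36.2% and 57.6% at the 3' end and 31.8% and 50.5% in the body.

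The partners were mostly gains for either direction. For gains, 94.5% of 419 partners were gains too, beside 94.5% over all DMRs. For losses, 5 of 26 partners, 19.2%, were losses, beside 25.8% over all DMRs. The Wilson interval, 8.51% to 37.9%, counts partners as separate although they share 12 genes. Of the 12 genes that had a loss at the 3' end and another DMR, 7 had gains only among the others, 2 had losses only and 3 had both. FNDC3B, a membrane protein with fibronectin domains, gives 9 of the 26 partners, all of them gains. The share of losses among partners thus leans on FNDC3B, and no difference from all DMRs is read from it. Its 3' end DMR went from 71.4% to 50.3%, while 9 DMRs in its introns were gains of 15.8 to 32.8 points. KLHDC3, a kelch protein of ubiquitin ligases, had a loss from 48.0% to 20.7% at the 3' end, a promoter DMR with 66.0% and 81.5%, another with 14.02% and 23.2%, and a gain from 27.5% to 47.8% over its 5' UTR. ITPK1 was lower in fiber cells at the 3' end and also in an intron, where it had 65.2% and 26.1%. FNDC3B and KLHDC3 were chosen after their values were seen.

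**Figure D4:**
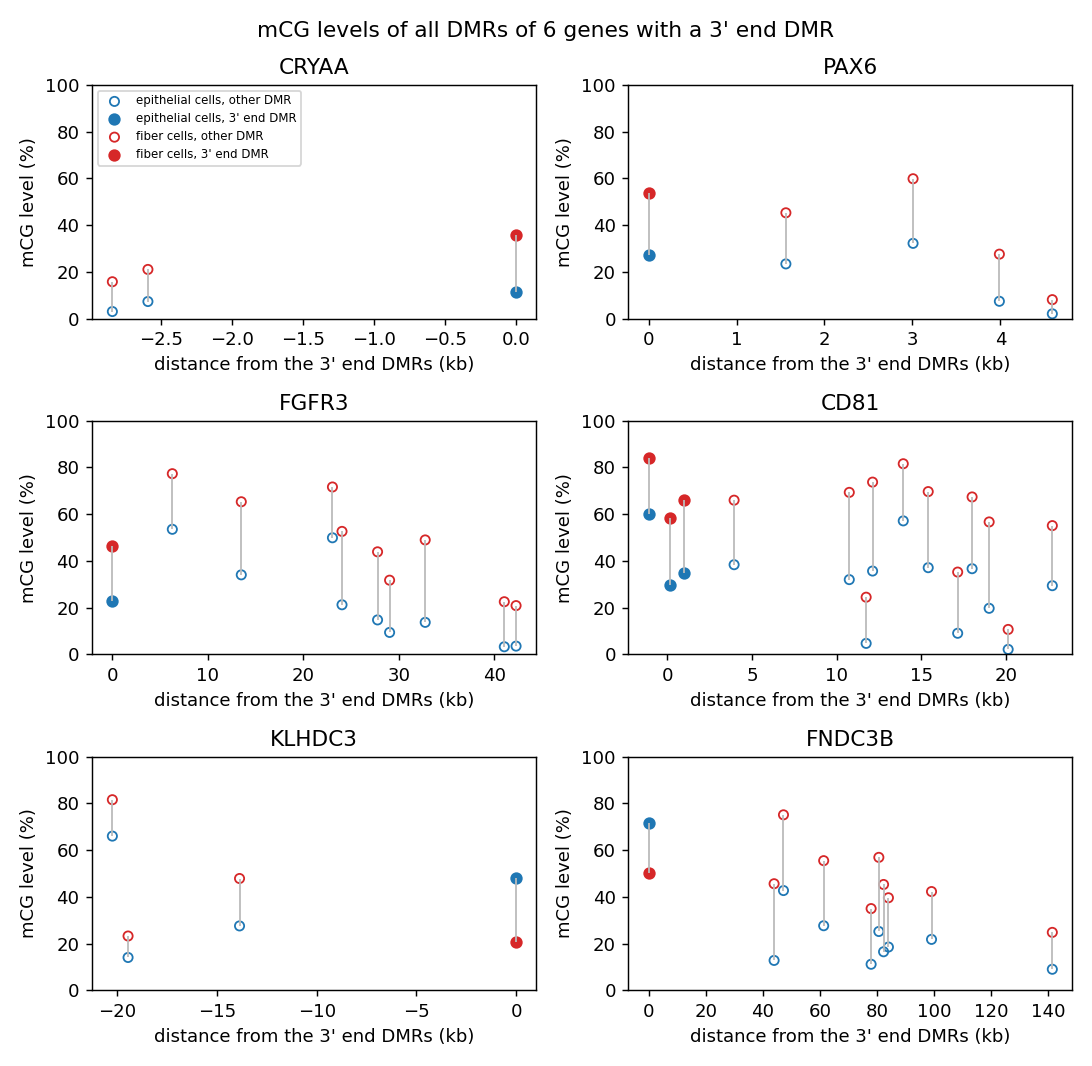
For 6 genes, mCG levels in percent of every DMR are set against the distance in kb from the 3' end DMRs along the reference strand (for CD81 from the mean position of its 3). Blue is epithelial and red fiber cells, pooled over 3 replicates, with filled points for 3' end DMRs and open points for the others. In the upper 4 genes red lies above blue at every DMR, and in KLHDC3 and FNDC3B the order is turned at the 3' end alone.

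Along CRYAA, both other DMRs were gains, from 3.01% to 15.8% over its 5' UTR and from 7.30% to 21.0% over an exon and an intron, so the 3' end had the highest levels of the 3. Along PAX6 the 3' end and 4 further DMRs were gains, and the DMR farthest from the 3' end had 2.05% and 8.10%. FGFR3 had 9 other DMRs, all of them gains, with epithelial levels from 3.28% to 53.6%. MAF differed, since an intron DMR went from 71.2% to 28.4% while its 3' end and its other 2 intron DMRs were gains. INSR, the insulin receptor, had a gain at its 3' end, from 18.8% to 37.4%, and its promoter DMR went from 38.1% to 58.96%. Of its 3 other gene body DMRs, 2 over exon and intron were losses, from 39.0% to 24.6% and from 46.5% to 32.1%. The mean change of these 3 was -2.27 points, so the remaining DMR was a gain. INSR was chosen after its values were seen.

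Some genes held several 3' end DMRs, not always with no other DMR between them. There were 11 genes with 2 or more and 3 genes with 3. At CD81, a tetraspanin, the 3 regions had epithelial and fiber levels of 59.95% and 84.0%, 29.6% and 58.3%, and 34.99% and 66.3%. At SHISA2, an inhibitor of Wnt and FGF signalling, they had 23.8% and 47.1%, 31.2% and 61.8%, and 15.6% and 31.2%. At SEMA4B, a semaphorin, they had 22.5% and 39.0%, 58.4% and 82.9%, and 11.02% and 31.0%. All 9 were gains, beside 86.6% of all DMRs. Neighbouring regions of 1 gene differed by up to 47.4 points in epithelial cells, at SEMA4B.

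Genes with 2 such regions were all gains too, where they carry a symbol, beside 86.6% gains over all DMRs. Over all DMRs, 94.5% of partners of a gain in the same gene were gains, so nothing particular is read from this. SIK1 had 4.63% and 21.4% in a region 1772 bp from another with 27.5% and 54.05%. MTA1, a subunit of the NuRD chromatin complex, had 37.7% and 67.7%, and 23.9% and 44.1%. The glucose transporter SLC2A1 had 30.7% and 46.8%, and 37.2% and 52.8%. PCBP2, an RNA-binding protein, had 23.5% and 39.98%, and 10.9% and 32.3%, and SARNP, a nuclear RNA export protein, 64.2% and 81.1%, and 24.7% and 46.5%. The phosphatase SSH2 had 47.7% and 71.2%, and 35.8% and 55.1%, and the kinase CSNK1G1 53.2% and 71.2%, and 62.1% and 80.1%. These 7 genes, and the regions in the next sentence, were chosen after their values were seen. Among gains, 23 partner DMRs of the same gene were losses, as at MSRB3, a methionine sulfoxide reductase, whose 3' end gained 23.4 points while its promoter DMR changed by -38.7 points.

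DMRs near a gain mostly shared its direction. Of the gains, 63 had another DMR within 1 kb, and the nearest was a gain in 62, beside 97.6% over all gains. Of the losses, 2 had a DMR within 1 kb, and the nearest was a loss in 1, beside 72.3% over all losses. Within 10 kb 9 losses had a DMR, and 4 of these 9 nearest DMRs were losses, beside 43.8% over all losses. FAM109A showed both directions within 1 kb, since a DMR in its exon 719 bp away went from 74.4% to 84.3%.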

How the data were processed

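Bisulfite-treated DNA of 3 epithelial and 3 fiber samples was sequenced. CASAVA, Trimmomatic, Bismark and the galGal6 build are given in the submitters' processing notes, and versions were not given in the sources used here. The authors called DMRs with DSS, which smooths over neighbouring sites and tests each with a beta-binomial model across replicates. Smoothing makes nearby sites alike. The authors deposited mean mCG levels as a fraction per cell type, pooled over replicates, and an area statistic, a score that sums site statistics. Their column of differences served as a check, and the read depth behind each level is not in the table.

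Of 13180 lines, 551 were repeats, and the rest were joined to 7621 DMRs. Levels were turned into percent, and the change is the fiber minus the epithelial level. Members and gene lists were chosen with earlier results of these data known. Named genes are the 10 largest gains and losses, the 3 largest area statistics each way, all lens genes, up to 4 per other list and genes with 3 regions; other names are marked as chosen later. Some members and matches are not reported here. Shares have 95% Wilson intervals. The member rule was tested on simulated data. Motif matches came from the study's listing, sequence and position only. Alternatives were minima of change, area statistic and sites, no 5' UTR or start site, protein-coding genes, and 1 region per 10 kb. They were also regions with a 3' UTR and regions with a TES, and 29 regions are in both of these sets. Python 3.11.15, pandas 2.3.3, NumPy 2.4.6, SciPy 1.17.1 and matplotlib 3.10.9 were used.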

Additional observations from a re-analysis of the deposited data

How the results depend on the processing

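The 7 summary values were recomputed under 8 alternatives. Of 56 values, 46 stayed within the 95% binomial interval of the value reported, 10 moved outside it and 0 reversed. A minimum change of 20 points left 138 regions and gave 81.2% gains, a median change of 24.0 points and 7.66 listed sites per 100 bp. All DMRs with such a change had 83.1% gains, a median of 24.7 points and 7.94 sites, so these values stay near that background. The share with an island or shore was 19.6% in the 138 regions, beside 787 of all 4538 DMRs with such a change. The median change moves by construction. Area statistics at or above the median of all DMRs gave a median epithelial level of 31.7% and 92.7% same-direction partners. Regions at a TES, with or without a 3' UTR, numbered 78. They gave 92.3% gains, 12.9 sites per 100 bp, 33.3% with an island or shore and 92.8% same-direction partners. Over all DMRs these values were 86.6%, 10.3, 24.9% and 89.7%. The cause was not tested for the other moves. The minimum of 10 sites removed no region, so its 7 values could not move. Leaving out 5' UTR or start sites kept 263 regions and protein-coding genes kept 252, so these values had little room to move. No paired analysis was possible because levels are pooled over replicates, and for the same reason no replicate could be left out. Without an annotation of this build here, the place of a region within its 3' UTR, isoforms and strand were not analysed.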
